A study of Mus musculus with 6 samples.

Results

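Ubiquitin ligases, deubiquitinases and their partners were followed in adipose stromal cells, the fibroblast-like progenitors of fat tissue, of the perigonadal and the subcutaneous depot of male mice. The members are the 67 probe sets (65 genes) of the authors' deposited comparison table whose gene symbol starts with Ube, Usp, Otud, Rnf, Trim, Fbxo, Fbxl, Fbxw or Klhl, or with Cul and a digit. Usp18 was left out by that rule. The comparison table lists probe sets (transcript clusters, one array measurement each) with an unadjusted p below 0.05 in a paired test of perigonadal against subcutaneous pools. The value table holds 23531 probe sets, of which 3541 are listed there, every member among them. The members were therefore chosen by the same depot difference that is described below. That difference is given as a description, and a ubiquitin gene outside the table has no name here and was not analysed.

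The perigonadal group was 3 pools of stromal cells from fat beside the gonads, and the subcutaneous group was 3 pools from fat under the skin. Per the labels, all cells were freshly isolated, never cultured, and sorted magnetically for Sca1 among cells without CD45 and CD31. The sources used here give neither strain nor age, and they name no allele or agent for either depot. The labels mention 6 animals without saying whether this is per pool, and they call the pools independent. They do not say whether pools of the same number share animals between depots, so the pairing follows the authors' paired test. Each pool was hybridised to 1 Affymetrix array, so precision is set by 3 arrays a depot. Array medians lay between 6.44 and 6.96 on the linear intensity scale. Values by pool are normalized intensities on that scale, in the order of pools 1, 2 and 3.

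Of the fixed stromal markers, 4 of 8 had a name here, among them the sort marker Ly6a (Sca1), at 435, 523 and 480 in perigonadal pools, against 510, 620 and 526 in subcutaneous pools. The collagens Col1a1 and Col3a1 and the receptor Pdgfrb were lower in perigonadal pools. Ptprc (CD45) and Pecam1 (CD31) had none, so the negative side of the sort was not analysed here. The 9 named mesothelial markers, of 14 listed, summed to 330 to 368 in perigonadal pools and 51.1 to 63.9 in subcutaneous pools, and all 9 were higher in perigonadal pools. Their log2 differences ran from 0.53 (Krt7) to 4.78 (Wt1). Wt1 alone made up 144, 153 and 126 of the perigonadal sums. The 3 named Schwann cell markers, of 6, summed to 18.4 to 20.7 in perigonadal pools and 50.8 to 61.4 in subcutaneous pools. Of the listed endothelial and leukocyte markers only Tek (73.7 to 79.6 in perigonadal and 121 to 139 in subcutaneous pools) and Itgam (2.41 to 2.54 in perigonadal and 2.29 to 2.48 in subcutaneous pools) had a name. Of 10 skeletal muscle markers 2 had a name, Actn3 at 17.9 to 22.3 in perigonadal and 4.67 to 6.28 in subcutaneous pools (log2 difference 1.71, past the threshold) and Mylpf at a log2 difference of -0.21, which did not pass. The mesothelial, Schwann cell, Tek and Actn3 values moved with the depot in every result below, and their part in those results was not tested. In pools of mixed cells, fewer cells of a type and less RNA per cell cannot be told apart.

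Ubiquitin is a small protein that cells attach to other proteins, which marks them for the proteasome or changes their activity, place or partners. An E1 enzyme activates ubiquitin, an E2 enzyme carries it, and an E3 ligase picks the substrate. RING ligases such as the Rnf and Trim proteins bring the E2 to the substrate, HECT ligases take over the ubiquitin first, and cullins are scaffolds on which F-box or kelch-like proteins hold the substrate. Deubiquitinases of the Usp and Otud families remove the mark. In fat progenitors these enzymes set the lifetime of receptors and transcription factors, and several Trim and Rnf genes belong to the interferon response.

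Most members were somewhat lower in perigonadal than in subcutaneous cells, and the differences were modest. Differences were taken on log2(intensity + 1), where the added 1 shrinks those of dim probe sets. On that scale 21 of 67 were above 0 and 46 below 0, with the same split in each of the 3 pool pairs. That agreement was fixed by the rule, since the paired test passes only where all 3 pairs share a sign. All 3541 listed probe sets show it. The 21 include a pair of identical probe sets of Ube1y1. The differences ran from -0.86 (Trim12a) to 0.83 (Fbxl13), with a median of -0.26 against -0.13 over the other 3474 listed probe sets and -0.010 over all 23531. None of the 67 reached a 2-fold difference on this scale (without the added 1, Fbxl13 did), against 502 (14.5%) of the other listed probe sets. Differences below 0.5 in size made up 55 of the 67 members (82.1%) and 61.9% of the other listed probe sets. No test was made of these contrasts between members and the rest.

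**Figure D1:**
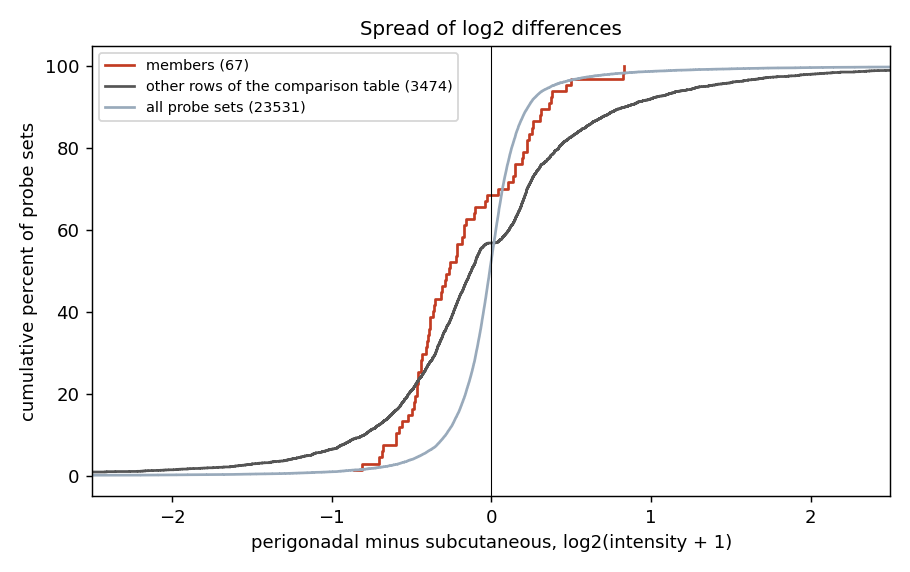
Cumulative percent of probe sets (vertical axis) by log2(intensity + 1) difference of perigonadal minus subcutaneous pools (horizontal axis, cut at both ends), for the 67 members, the other 3474 rows of the comparison table with values, and all 23531 probe sets. The line of the members crosses 0 at 68.7%, that of the other listed rows at 56.9%, and the members' line stays between -0.86 and 0.83.

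Values of the 3 pools of a depot did not overlap those of the other depot in 55 members, 14 higher and 41 lower in perigonadal pools. Over all probe sets the depots did not overlap in 25.1% (10.7% higher and 14.4% lower). In limma with Benjamini-Hochberg adjustment over all probe sets and a threshold of 0.05, 35 members passed, 6 higher and 29 lower, where 9.51% of all probe sets passed (4.05% higher and 5.47% lower). The rule for membership used this same contrast, so nothing is read from these counts. The same holds for the counts by class below, beside which the same shares stand. After quantile normalization the split was 8 higher and 19 lower for the members, and 967 higher and 980 lower over all probe sets, against 952 higher and 1286 lower without it. For the members it was 2 higher and 6 lower without pool pair 1, and 3 and 10 without pool pair 2. In 7 member probe sets the call held in all 9 other limma fits, those of Trim12a, Trim30a, Trim25, Trim21, Rnf19b, Rnf122 and 1 of the 2 of Rnf213. The other 28 lost it in at least 1 of them. Another 7 members, Fbxl17, Klhl5, Ube4b, Cul3, Rnf141, Trim23 and Trim44, passed in at least 1 of them. Among all 3541 listed probe sets with values, 783 passed as higher and 1049 as lower. Without overlap between depots were 1226 of them on the higher and 1652 on the lower side.

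In the remaining 12 members the depots overlapped although each of the 3 pool pairs went one way. The same pool was the highest in both depots in all 12, and in 10 of them the same pool was also the lowest. The paired test that chose the members takes such differences between pool numbers out. Within a depot, the highest pool exceeded the lowest by a median of 1.15-fold in perigonadal and 1.14-fold in subcutaneous pools over the members. By level, 12 member probe sets (11 genes) lay below 6.44, the lowest array median, in every pool, with values from 1.99 to 6.31. None of these passed the threshold, and whether they lie above background was not analysed here.

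**Figure D2:**
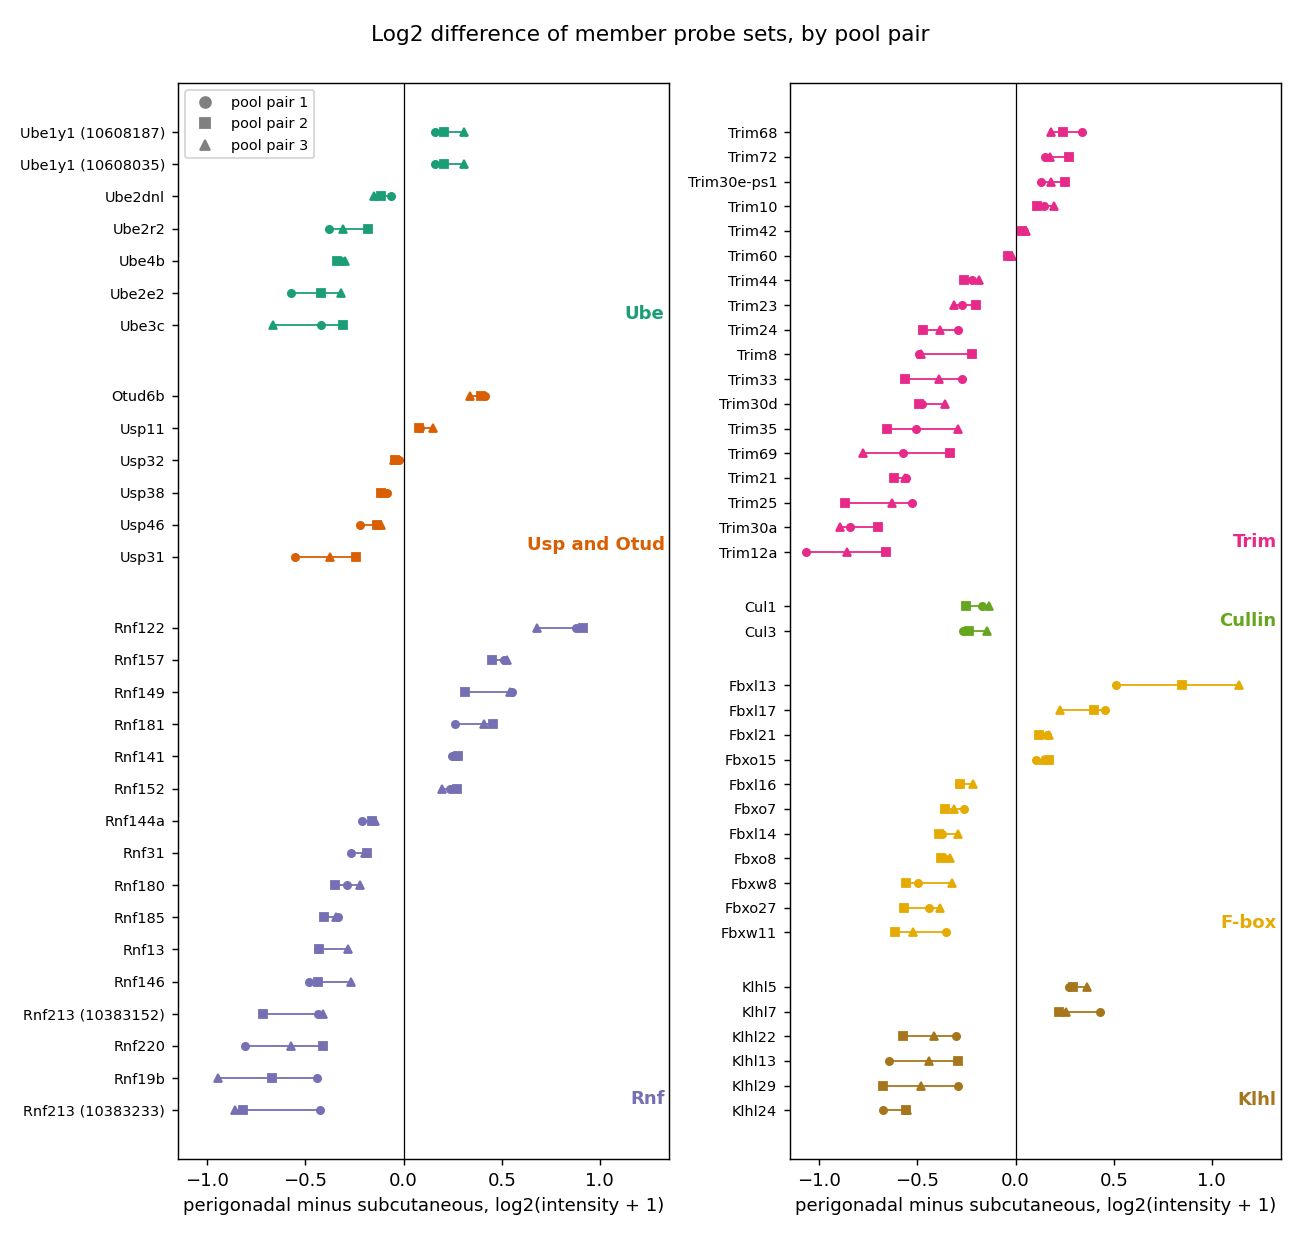
Log2 difference, perigonadal minus subcutaneous, of 66 member probe sets (horizontal axis, log2(intensity + 1) scale), grouped by class. Circles, squares and triangles are pool pairs 1, 2 and 3, joined by a line, and in every probe set all 3 lie on one side of 0, with 21 to the right and 45 to the left. The rule for membership requires this agreement in sign.

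The Trim proteins, RING ligases with a B-box and a coiled coil, held the 2 largest negative differences, those of Trim12a and Trim30a. Without pool pair 1, Rnf213 (-0.84) and Rnf19b (-0.81) lay ahead of Trim30a (-0.80) and Trim12a (-0.76). Of 18 Trim probe sets, 5 were above 0 and 13 below 0, with a median of -0.39. None of the 5 and 10 of the 13 passed the threshold. Trim12a, a mouse relative of the antiviral factor TRIM5 (transcript cluster 10566326, chromosome 7, band E3), had intensities of 19.7, 20.5 and 23.8 in perigonadal pools, against 42.5, 32.9 and 43.96 in subcutaneous pools. Every perigonadal pool lay below every subcutaneous one, with a log2 difference of -0.86 ± 0.10. Here and below, ± on a log2 difference is limma's moderated SE (n = 3 pairs of same-numbered pools). It draws in part on the variance of all probe sets, so it is not the gene's own spread between pairs. Trim30a, an interferon-induced gene that restrains Toll-like receptor signalling (transcript cluster 10566358, chromosome 7, band E3), was at 39.2, 39.5 and 34.5 in perigonadal pools, against 71.1, 64.8 and 65.02 in subcutaneous pools, a log2 difference of -0.81 ± 0.089. Here too the groups stood apart, and the means were 37.7 ± 2.77 in perigonadal and 66.98 ± 3.60 in subcutaneous pools (SD, n = 3 each).

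Trim25, which ubiquitinates the viral RNA sensor RIG-I (transcript cluster 10380260, chromosome 11, band C), was at 29.9, 25.9 and 28.7 in perigonadal pools, against 43.6, 48.2 and 44.9 in subcutaneous pools, a log2 difference of -0.68 ± 0.099. Trim21, a cytosolic receptor for antibody-coated virus (transcript cluster 10566144, chromosome 7, band F1), was at 14.02, 12.9 and 14.1 in perigonadal pools, against 21.1, 20.4 and 21.3 in subcutaneous pools, a log2 difference of -0.58 ± 0.085. Its pools were tight within each depot. Trim30d, a close relative of Trim30a (transcript cluster 10566366, chromosome 7, band E3), was at 48.7, 55.2 and 53.8 in perigonadal pools, against 68.2, 77.9 and 69.4 in subcutaneous pools, a log2 difference of -0.44 ± 0.087. The depots did not overlap in any of these 3. Trim30a and Trim30d are similar in sequence, and the array may not keep their signals apart.

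Together with Rnf213, these 5 genes are the 6 named genes of a list of 18 symbols for interferon-induced members that was drawn up with earlier results of these data known. All 7 of their probe sets were lower in perigonadal pools and passed the threshold, with a median log2 difference of -0.68. Of the 3541 listed probe sets 1049 passed as lower, and of all probe sets 5.47%. The authors' test chose these genes by the same contrast, so nothing is read from the count. The calls of Trim30d and of probe set 10383152 of Rnf213 are among those lost in another fit. The summed intensity of the 7 was 191 to 193 in perigonadal and 303 to 313 in subcutaneous pools. Rnf213, a giant ligase with an ATPase motor that is linked to moyamoya disease in people, had a pair of probe sets on chromosome 11, band E2. One (10383233) was at 24.01, 21.7 and 18.5 in perigonadal pools, against 32.6, 39.05 and 34.4 in subcutaneous pools. The other (10383152) was at 17.3, 17.8 and 17.6 in perigonadal pools, against 23.8, 29.8 and 23.7 in subcutaneous pools. Both put the perigonadal pools lower, with log2 differences of -0.70 ± 0.11 and -0.52 ± 0.098.

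**Figure D3:**
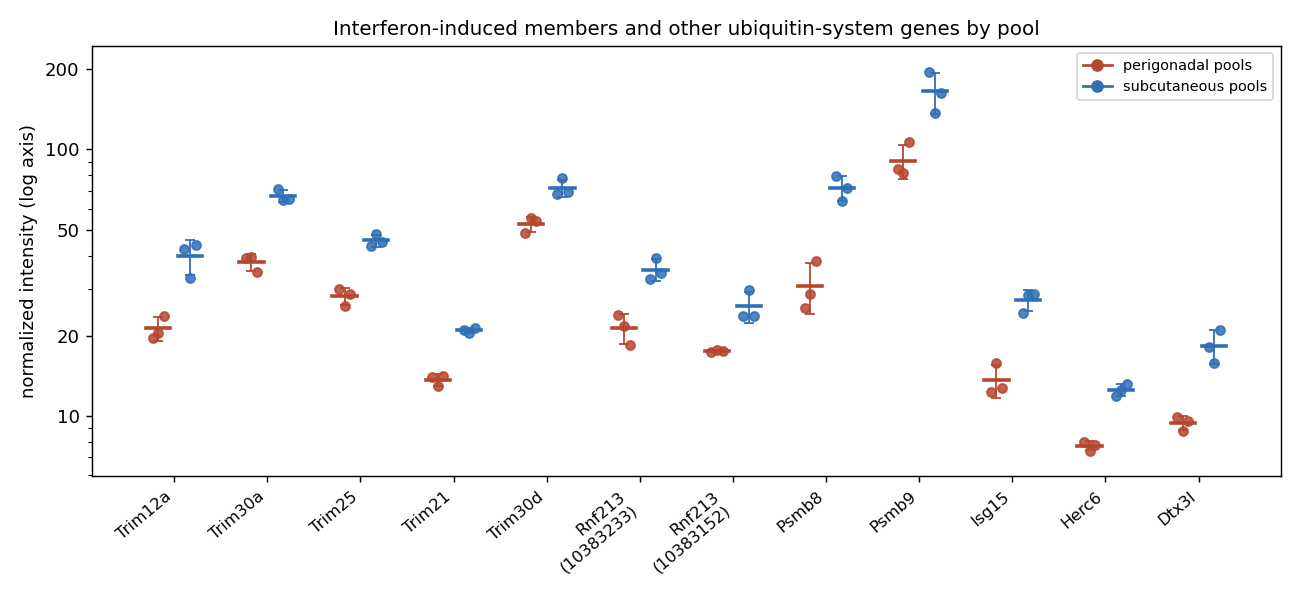
Normalized intensity (vertical axis, log scale) of the interferon-induced members and of Psmb8, Psmb9, Isg15, Herc6 and Dtx3l in the 3 perigonadal (left, red) and 3 subcutaneous pools (right, blue) of each probe set, with bars for the mean and SD. Perigonadal points lie below all subcutaneous points in every probe set shown, and heights are not comparable between probe sets.

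Promoter sequence is shown for the interferon-induced members because all of their listed probe sets were lower in perigonadal pools. RefSeq (GRCm38.p6) gives windows from 250 bases before to 50 after the start for 53 of the 65 member genes. The letters GAAA, any 2 bases and GAAA again, the core of the interferon-stimulated response element, were searched on both strands. They occurred in the windows of 4 of the 6 interferon-induced members and in 3.99% of all 27025 genes with a window. Of the other 47 members with a window 4 held them, Cul1, Fbxo7, Klhl22 and Rnf146, all below 0 as well. The 6 genes were picked as interferon-induced, so this is a description, and a match in letters is not a bound site. The lines give 90 bases before to 30 after each start, 5′ to 3′ on the gene's strand, with the motif in capitals. It reads on the gene's strand in Trim21, where overlapping matches begin 14 and 20 bases into the transcript, and on the opposite strand in the others. Trim30a has a pair of start sites. Its stretches and that of Trim30d are nearly alike around the motif, so their matches are not separate cases.
Trim21 (chr7:102565453-102565572, minus strand): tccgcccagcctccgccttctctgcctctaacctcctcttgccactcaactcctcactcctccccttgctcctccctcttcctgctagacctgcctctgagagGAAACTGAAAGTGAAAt
Trim12a (chr7:104315466-104315585, minus strand): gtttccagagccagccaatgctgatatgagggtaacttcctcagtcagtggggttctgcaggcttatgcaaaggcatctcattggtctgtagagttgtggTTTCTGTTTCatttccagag
Trim30a (chr7:104465164-104465283, minus strand): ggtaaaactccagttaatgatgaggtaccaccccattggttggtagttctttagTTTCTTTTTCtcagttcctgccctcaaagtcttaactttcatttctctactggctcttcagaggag
Trim30a (chr7:104446096-104446215, minus strand): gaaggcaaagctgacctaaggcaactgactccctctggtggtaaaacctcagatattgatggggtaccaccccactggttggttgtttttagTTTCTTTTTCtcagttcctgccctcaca
Trim30d (chr7:104507820-104507939, minus strand): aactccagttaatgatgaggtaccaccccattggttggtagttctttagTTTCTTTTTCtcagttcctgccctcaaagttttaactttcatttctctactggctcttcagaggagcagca
The motif begins 11 bases into the transcript in Trim12a and 41 bases before the start in Trim30d. In Trim30a it begins 36 bases before one start and 3 bases after the other. The windows of Trim25 and Rnf213 hold no such letters.

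Chromosome 7 carried 10 member probe sets, 7 of them Trim genes: Trim12a, Trim21, Trim30a, Trim30d, Trim68, Trim30e-ps1 and Trim72. In the RefSeq order of protein-coding genes, Trim30a and Trim30d are direct neighbours, and Trim68 lies near Trim21 with olfactory receptor genes between them. Genes of this stretch did not all share a direction, since Trim68 and Trim30e-ps1 were above 0. Trim68, a ligase studied as a coactivator of the androgen receptor (transcript cluster 10566161, chromosome 7, band E3), was at 9.27, 7.40 and 6.77 in perigonadal pools, against 7.13, 6.10 and 5.86 in subcutaneous pools. Its depots overlapped, and its log2 difference was 0.25 ± 0.087. The pseudogene Trim30e-ps1 (transcript cluster 10566372, chromosome 7, band E) was at 7.66, 7.86 and 7.74 in perigonadal pools, against 6.91, 6.43 and 6.70 in subcutaneous pools, a log2 difference of 0.19 ± 0.086 with no overlap. Neither passed the threshold, and cross-hybridisation of Trim30e-ps1 with its relatives was not tested.

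The other Trim genes below 0 included transcriptional cofactors. Trim69 had a log2 difference of -0.56 and Trim35 of -0.49. Trim33 and Trim24, chromatin-reading cofactors of which Trim33 acts on Smad signalling, were at -0.41 and -0.39, and Trim8, which is linked to cytokine signalling, at -0.40. All 5 passed the threshold and had depots that did not overlap. Trim23, which also carries a small GTPase domain, and Trim44, which lacks a RING, were at -0.26 and -0.22, without overlap but short of the threshold. Trim72, which seals torn membranes in striated muscle and was the only named gene of 13 striated-muscle symbols (transcript cluster 10557855, chromosome 7, band F3), was at 4.14, 4.62 and 3.88 in perigonadal pools, against 3.63, 3.65 and 3.32 in subcutaneous pools, below the array medians throughout. The muscle marker Actn3 was higher in perigonadal pools as well and Mylpf was not, and their part in the value of Trim72 was not tested. Trim10, Trim42 and Trim60 were as dim, with differences of 0.15, 0.04 and -0.03 and depots that overlapped.

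The Rnf genes went both ways. Of 16 probe sets (15 genes), 6 were above 0 and 10 below 0, with a median of -0.25. Past the threshold were 4 and 7 of them, where 4.05% of all probe sets passed as higher and 5.47% as lower. Of the 4 higher calls only that of Rnf122 held in all 9 other limma fits. Rnf122, a small membrane-bound RING ligase (transcript cluster 10571214, chromosome 8, band A3), was at 104, 105 and 119 in perigonadal pools, against 56.2, 55.02 and 73.8 in subcutaneous pools. The lowest perigonadal pool exceeded the highest subcutaneous one by a wide margin, and the log2 difference was 0.83 ± 0.092. Rnf157, known from neurons (transcript cluster 10393272, chromosome 11, band E2), was at 10.8, 9.32 and 9.99 in perigonadal pools, against 7.26, 6.54 and 6.64 in subcutaneous pools, a log2 difference of 0.50 ± 0.085. Rnf149, of the protease-associated RING family of membrane ligases (transcript cluster 10354191, chromosome 1, band B), was at 20.4, 17.7 and 17.7 in perigonadal pools, against 13.6, 14.03 and 11.8 in subcutaneous pools, a log2 difference of 0.47 ± 0.093. Both had perigonadal pools above all subcutaneous ones. Rnf181 was the fourth past the threshold, with a log2 difference of 0.38, while Rnf141 (0.26) and Rnf152 (0.24), a lysosomal ligase, did not pass.

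On the lower side, Rnf19b, a RING-between-RING ligase known from natural killer cells (transcript cluster 10508392, chromosome 4, band D2.3), was at 38.1, 36.3 and 31.96 in perigonadal pools, against 52.1, 58.3 and 62.4 in subcutaneous pools. Perigonadal values were all lower, with means of 35.5 ± 3.17 in perigonadal and 57.6 ± 5.17 in subcutaneous pools and a log2 difference of -0.68 ± 0.11. Rnf220 (transcript cluster 10515461, chromosome 4, band D1) was at 26.1, 24.8 and 22.99 in perigonadal pools, against 46.3, 33.3 and 34.6 in subcutaneous pools, a log2 difference of -0.60 ± 0.10. Subcutaneous pool 1 was the highest of its values, and no perigonadal pool reached a subcutaneous one. Rnf146, which recognises poly-ADP-ribose on axin and so acts in Wnt signalling, was at a log2 difference of -0.39. Rnf13, an endosomal and lysosomal ligase, was at -0.38 and Rnf185, which works in degradation at the endoplasmic reticulum, at -0.36. Rnf185 was the one member past the threshold whose depots overlapped, at 13.9, 10 and 11.3 in perigonadal pools, against 17.8, 13.6 and 14.6 in subcutaneous pools, with pool 1 the highest in both.

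The last 3 Rnf genes below 0 did not pass. Rnf31, the catalytic subunit of the complex that builds linear ubiquitin chains, was at 19.4, 18.9 and 19.4 in perigonadal pools, against 23.5, 21.6 and 22.4 in subcutaneous pools, a small but non-overlapping log2 difference of -0.22 ± 0.085. Rnf144a, another RING-between-RING ligase, had a difference of -0.17 and the dim Rnf180 one of -0.29.

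**Figure D4:**
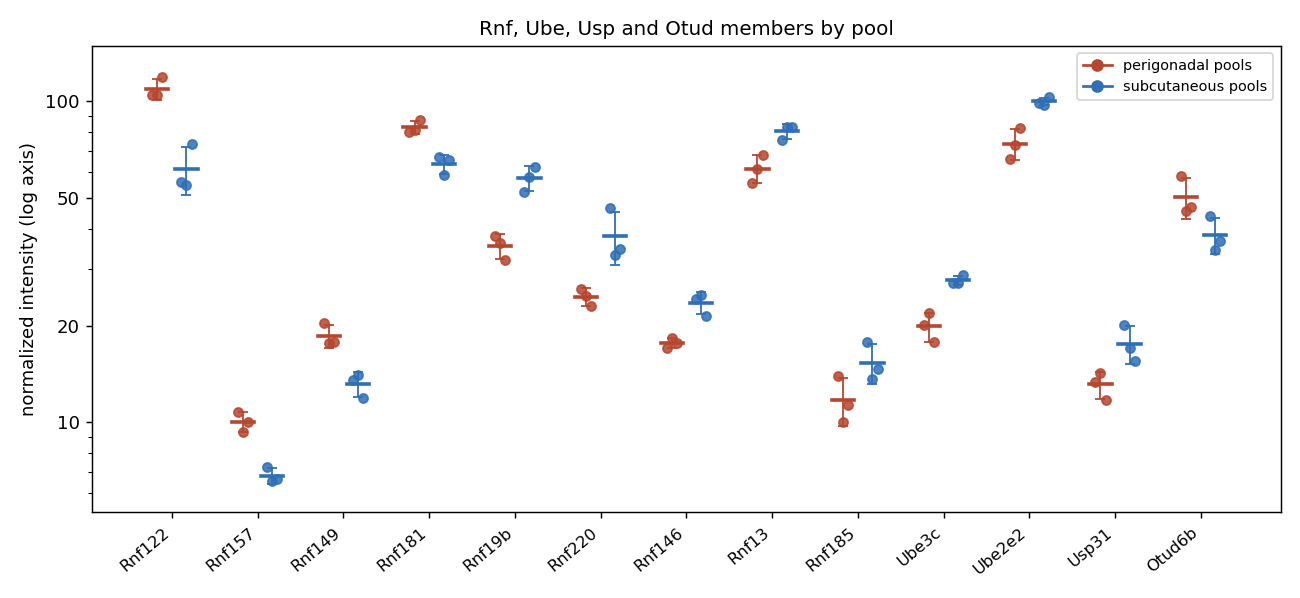
Normalized intensity (vertical axis, log scale) of 13 Rnf, Ube, Usp and Otud members past the threshold, without Rnf213, in perigonadal (left, red) and subcutaneous pools (right, blue), 3 pools each, with bars for the mean and SD. Rnf122, Rnf157, Rnf149, Rnf181 and Otud6b have all perigonadal points above the subcutaneous ones, and Rnf185 is the probe set whose points overlap among those with lower perigonadal means. Heights are not comparable between probe sets.

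Of the cullin scaffolds only Cul1 and Cul3 had a name here, and both differed little. Cul1, the scaffold for F-box proteins (transcript cluster 10537882, chromosome 6, band B3), was at 58.8, 57.3 and 58.4 in perigonadal pools, against 66.3, 68.4 and 64.1 in subcutaneous pools. Cul3, the scaffold for kelch-like proteins (transcript cluster 10356001, chromosome 1, band C4), was at 211, 202 and 197 in perigonadal pools, against 254, 238 and 218 in subcutaneous pools. Neither gene's depots overlapped, the log2 differences were -0.18 ± 0.086 and -0.22 ± 0.086, and neither passed the threshold.

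Of 11 F-box genes, 4 were above 0 and 7 below 0, with 1 and 5 past the threshold and a median of -0.31. Fbxw11, the substrate receptor for beta-catenin and inhibitors of NF-kappaB (transcript cluster 10375103, chromosome 11, band A4), was at 29.8, 28.01 and 29.8 in perigonadal pools, against 38.4, 43.4 and 43.2 in subcutaneous pools, a log2 difference of -0.50 ± 0.093. Fbxo27, which binds glycoproteins (transcript cluster 10551534, chromosome 7, band A3), was at 5.39, 4.66 and 4.83 in perigonadal pools, against 7.68, 7.38 and 6.61 in subcutaneous pools, a log2 difference of -0.46 ± 0.089. Fbxw8, which pairs with another cullin (transcript cluster 10533095, chromosome 5, band F), was at 21, 17.2 and 20.5 in perigonadal pools, against 30.04, 25.7 and 26 in subcutaneous pools, a log2 difference of -0.46 ± 0.091. All perigonadal pools lay below all subcutaneous pools in these 3 genes. Fbxo8 (-0.36) and Fbxl14, which targets the Snail transcription factor (-0.35), also passed. Fbxo7, a Parkinson disease gene that acts in the clearance of damaged mitochondria, was at -0.31 and Fbxl16 at -0.26, and neither passed.

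Fbxl13 and Rnf122 had the 2 largest positive differences of the members, and Fbxl13 was dim. It (transcript cluster 10528310, chromosome 5, band A3) was at 5.20, 7 and 8.40 in perigonadal pools, against 3.35, 3.44 and 3.27 in subcutaneous pools. The perigonadal pools were unlike each other, the subcutaneous ones nearly equal, and the log2 difference was 0.83 ± 0.13. With a pseudocount of 16 the difference was 0.24 and no longer passed. Rnf122 had the larger difference of the pair in that fit (0.70), after quantile normalization (0.88, against 0.82 for Fbxl13) and without pool pair 3 (0.90, against 0.68). Fbxl17, which clears mispaired dimers of kelch-like and related proteins (transcript cluster 10452430, chromosome 17, band E1.2), was at 21.4, 23.1 and 23.6 in perigonadal pools, against 15.3, 17.3 and 19.96 in subcutaneous pools, a log2 difference of 0.36 ± 0.091 without overlap. It did not pass, but did so in 4 of the 9 other limma fits. Fbxl21, a circadian F-box protein that binds cryptochromes (transcript cluster 10405576, chromosome 13, band B1), was at 4.06, 3.41 and 4.54 in perigonadal pools, against 3.53, 3.06 and 3.92 in subcutaneous pools. Its depots overlapped, with pool 3 the highest and pool 2 the lowest in both, and the log2 difference was 0.15 ± 0.084. Fbxo15, known from embryonic stem cells, was dimmer still, with a difference of 0.14.

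The 6 kelch-like genes split without any overlap between depots, 2 above 0 and 4 below 0. Over all probe sets the depots did not overlap in 25.1%. All 4 on the lower side passed the threshold and neither of the higher ones did. Of all probe sets 5.47% passed as lower and 4.05% as higher, and nothing is read from these counts. Klhl5 passed with a pseudocount of 16, where Klhl29 and Klhl13 did not, and after quantile normalization, where Klhl22 did not. Klhl24, a regulator of keratin turnover in skin (transcript cluster 10434302, chromosome 16, band B1), was at 49.3, 49.1 and 47.2 in perigonadal pools, against 79.3, 72.8 and 69.7 in subcutaneous pools, a log2 difference of -0.60 ± 0.086. Klhl29 (transcript cluster 10399337, chromosome 12, band A1.1) was at 11, 8.32 and 9.02 in perigonadal pools, against 13.7, 13.9 and 12.97 in subcutaneous pools, a log2 difference of -0.48 ± 0.10. Klhl13, which acts on Aurora B in mitosis (transcript cluster 10603896, chromosome X, band A2), was at 79.03, 95.2 and 96.5 in perigonadal pools, against 124, 117 and 131 in subcutaneous pools, a log2 difference of -0.46 ± 0.10. The perigonadal pools of Klhl24 lay within a narrow range. Klhl22, an activator of nutrient signalling, had a log2 difference of -0.43. Klhl5 (transcript cluster 10522075, chromosome 5, band C3.1) was at 16.1, 14.3 and 14.5 in perigonadal pools, against 13.2, 11.5 and 11.1 in subcutaneous pools. Klhl7 (transcript cluster 10520096, chromosome 5, band A3) was at 22.9, 19.7 and 20.5 in perigonadal pools, against 16.8, 16.8 and 17.1 in subcutaneous pools. Perigonadal pools lay above all subcutaneous ones in both, with log2 differences of 0.31 ± 0.085 and 0.30 ± 0.091.

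**Figure D5:**
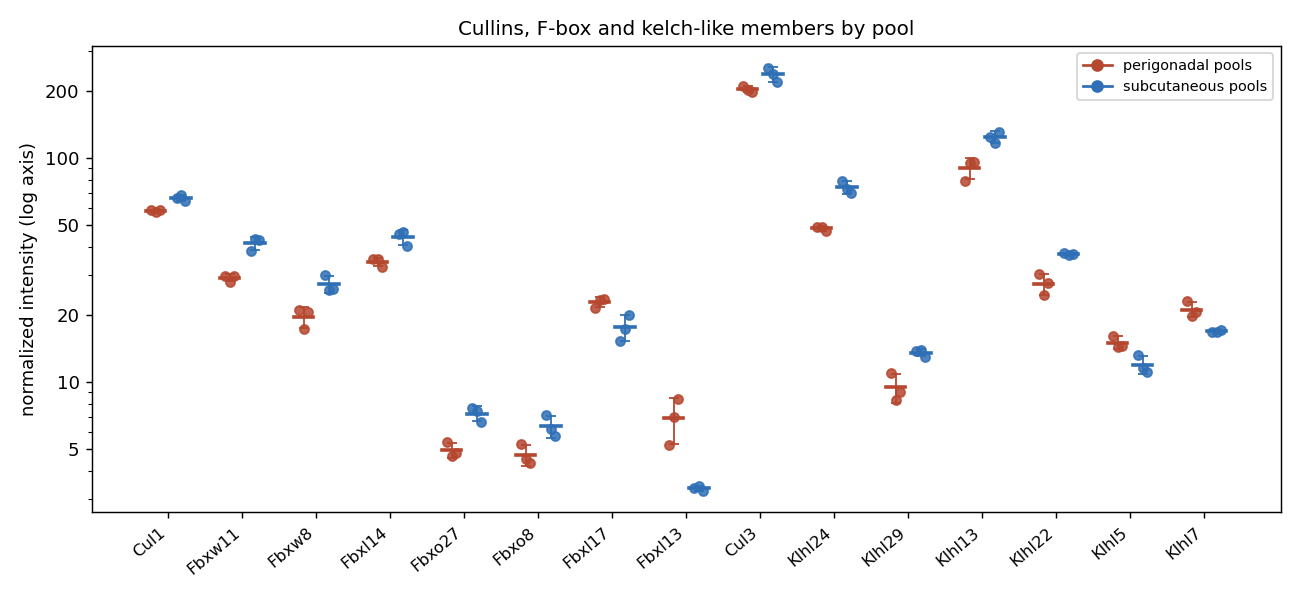
Normalized intensity (vertical axis, log scale) of Cul1 with 7 of the 11 F-box members (Fbxo7, Fbxl16, Fbxl21 and Fbxo15 are not drawn) and of Cul3 with the 6 kelch-like members in perigonadal (left, red) and subcutaneous pools (right, blue), 3 pools each, with bars for the mean and SD. Fbxl17, Fbxl13, Klhl5 and Klhl7 have perigonadal points above the subcutaneous ones, and the other genes shown have them below. Heights are not comparable between probe sets.

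Among the 8 Ube probe sets, which hold E1, E2, HECT and U-box enzymes, 2 were above 0 and 6 below 0, with none and 2 past the threshold. Ube3c, a HECT ligase that lengthens chains at the proteasome (transcript cluster 10520419, chromosome 5, band B1), was at 20.1, 21.8 and 17.7 in perigonadal pools, against 27.1, 27.2 and 28.7 in subcutaneous pools, a log2 difference of -0.46 ± 0.10. The E2 enzyme Ube2e2 (transcript cluster 10417759) was at 66.1, 72.8 and 82.3 in perigonadal pools, against 98.9, 97.7 and 103 in subcutaneous pools, a log2 difference of -0.44 ± 0.092. These 2 passed, and their depots did not overlap. Ube4b, a U-box enzyme that extends ubiquitin chains (transcript cluster 10518642), was at 49.1, 54.2 and 54.3 in perigonadal pools, against 61.5, 68.8 and 66.9 in subcutaneous pools, a log2 difference of -0.32 ± 0.084 short of the threshold, which it passed in 2 of the 9 other limma fits. Ube2r2, an E2 for cullin ligases, had a difference of -0.29.

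Ube1y1, the Y-linked E1 gene that RefSeq lists under Uba1y, had a pair of probe sets with identical values. Both are in the counts of probe sets given here, so each count that holds them would be 1 smaller with the pair taken once. It was dim at 2.47, 2.75 and 2.77 in perigonadal pools, against 2.11, 2.25 and 2.05 in subcutaneous pools, a log2 difference of 0.22 ± 0.087. Ube2dnl, which RefSeq lists under Ube2dnl1, was also below the array medians, with a difference of -0.11.

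The deubiquitinases went both ways, with differences below 0.5 in size. Of 6 genes, 2 were above 0 and 4 below 0, with a median of -0.069 and 1 past the threshold on each side. Otud6b, an ovarian tumour domain protease (transcript cluster 10511661, chromosome 4, band A1), was at 58.7, 45.6 and 46.7 in perigonadal pools, against 43.8, 34.5 and 36.8 in subcutaneous pools. Pool 1 was the highest in both depots, perigonadal values lay above all subcutaneous ones, and the log2 difference was 0.38 ± 0.085. Usp31 (transcript cluster 10567589, chromosome 7, band F2) was at 13.4, 14.2 and 11.7 in perigonadal pools, against 20.1, 16.98 and 15.5 in subcutaneous pools, a log2 difference of -0.39 ± 0.097. Its call was lost in 7 of the 9 other limma fits. Usp11 (transcript cluster 10598933, chromosome X, band A1.3) was at 16.9, 14.7 and 15.3 in perigonadal pools, against 15.9, 13.9 and 13.7 in subcutaneous pools, with overlap and a log2 difference of 0.10 ± 0.085. Usp46, which works with a WD-repeat partner (transcript cluster 10530641, chromosome 5, band C3.3), was at 5.22, 5.51 and 6.10 in perigonadal pools, against 6.25, 6.16 and 6.69 in subcutaneous pools, without overlap and with a log2 difference of -0.16 ± 0.086. Usp38 (transcript cluster 10573077, chromosome 8, band C3) was at 6.31, 5.98 and 5.42 in perigonadal pools, against 6.76, 6.56 and 5.88 in subcutaneous pools, with overlap and a log2 difference of -0.10 ± 0.084. None of these 3 passed. Usp32 had a difference of -0.04, which turned positive, at 0.049, after quantile normalization.

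At the edge of the rule, the members with the highest p in the authors' deposited table were Klhl29 (0.0497), Usp31 (0.0494) and Ube3c (0.0488). Probe sets just outside it have no name here and were not analysed by gene.

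Other genes of the ubiquitin system were read from lists of symbols, older and current ones together, and had a name only where the same authors' test had selected them. Of 9 named probe sets (8 genes) of HECT and RING-between-RING ligases, 2 passed as higher and 6 as lower, 1 did not, and the median log2 difference was -0.53. Arih1, a ligase that works with active cullins, was at 232, 239 and 188 in perigonadal pools, against 108, 149 and 128 in subcutaneous pools, a log2 difference of 0.77 ± 0.12. Smurf2, which targets TGF-beta receptors, had a pair of probe sets at -0.65 and -0.57. Hecw2 was at -0.64 and Herc6, the mouse ligase for the interferon-induced modifier ISG15, at -0.63. Beside these lists stand the 783 higher and 1049 lower calls and the median of -0.13 over all 3541 listed probe sets with values. Of 16 named RING ligases outside the prefixes, 1 was higher, 8 lower and 7 did not pass, with a median of -0.36. Peli2, a partner of interleukin 1 receptor kinases, was at -0.92. Its relative Peli1, the one higher gene of this list, went the other way, at 31.4, 29.9 and 30.8 in perigonadal pools, against 20.9, 21.5 and 24.4 in subcutaneous pools, a log2 difference of 0.45 ± 0.091. The deltex genes Dtx3l, Dtx2 and Dtx4 were at -0.88, -0.75 and -0.64.

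Of 8 named cullin adaptors and regulators, 1 was higher, 2 lower and 5 did not pass, with a median of -0.22. Kctd11, a Cul3 adaptor, was at 0.47, Kbtbd11 at -0.58, Kctd9 at -0.46 and Cand2, a cullin-binding protein, at -0.32. Kbtbd11 was dim, below the array medians in every pool. Both named deubiquitinases outside the prefixes were lower. Cyld, a tumour suppressor that trims chains in NF-kappaB signalling, was at -0.53. Mindy2 was at -0.55 and -0.46 in its pair of probe sets, and its depots overlapped in the first of these. Of 6 named proteasome subunits, 2 were lower and 4 did not pass, with a median of -0.175. These 2 were the interferon-inducible catalytic subunits Psmb8 and Psmb9, with Psmb8 at 25.5, 28.7 and 38.2 in perigonadal pools, against 79.3, 63.9 and 71.9 in subcutaneous pools, a log2 difference of -1.21 ± 0.14, and Psmb9 at -0.85. The activator subunit Psme1 was at -0.28 and the lid subunit Psmd12 at 0.21. Isg15 itself was at 12.3, 15.8 and 12.7 in perigonadal pools, against 24.4, 28.5 and 28.8 in subcutaneous pools, a log2 difference of -0.95 ± 0.096, and the protease Ufsp1 at 0.11. No gene of the ubiquitin precursor and E1 list had a name through its listed symbols.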

How the data were processed

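The authors deposited a table of normalized intensity, linear, with a value for each probe set in each pool. Partek is the software in the submitters' processing notes, and the sources used here do not give its version, background correction, normalization or genome build. Per the file headers, the authors' deposited comparison table gives log2 means and differences, a ratio, a signed fold and a t score (kept as scores), and a p-value, unadjusted, from a test of pool pairs. The log2 differences of all 67 members were recomputed to within 0.01.

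Differences are perigonadal minus subcutaneous on log2(intensity + 1), fitted with limma 3.58.1 in R 4.3.3 over the whole table of 23531 probe sets, unfiltered, with the pool number as a block, as in the authors' own paired test (2 residual degrees of freedom, prior 5.24). P-values were adjusted by Benjamini-Hochberg. The fit was tested on simulated data. As a check of the pairing, pools 1, 2 and 3 of one depot deviated from the depot mean with correlations of 0.166, 0.156 and 0.0527 to their namesakes in the other. Between pools of different number the correlations ran from -0.172 to 0.02. All of these are weak, and they do not settle whether such pools share animals. A p-value of this fit reflects only pool-to-pool spread, and that spread is borrowed in part from all probe sets. The prior (5.24) counts for more than the 2 degrees of freedom of a probe set's own pools. The alternatives were no block, pseudocounts of 0 and 16, a filter on dim probe sets, quantile normalization, median centring, each pool pair left out, and the methods' t-test.

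The members, lists and tests were chosen with earlier results of these data known. Values by pool are given, per class, for up to 3 genes with the largest positive and up to 3 with the largest negative difference, alike in 3 of 3 pool pairs, for interferon-induced and striated-muscle members, and for some others chosen after their values were seen. Up to 4 members of each further list are named, those with the largest differences in size. Peli1 is named beside them as the one higher gene of its list. Of the 67 probe sets, 61 were matched to RefSeq by accession and 3 by symbol, and 3 kept the file's symbol. One member is counted in the totals but not reported here by name or value. Bands are those of the authors' table and are left out where it gives none.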

Additional observations from a re-analysis of the deposited data

How the results depend on the processing

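All 67 members kept their direction under every alternative that tested them, except Usp32, whose log2 difference was 0.049 after quantile normalization. Only quantile normalization and median centring could have changed a direction. In the other alternatives it was fixed, since the rule chose members whose pool pairs all share a sign. The median of the members moved to -0.292 without a pseudocount and under the methods' t-test, to -0.148 with a pseudocount of 16 and to -0.373 over the 50 members with a mean intensity above the median of all probe sets. Leaving out 1 pool pair gave medians between -0.28 and -0.25, with 2 to 6 members higher and 6 to 21 lower, and over all probe sets 529 to 1068 higher and 660 to 1408 lower. The members' counts were lowest without pool pair 1, and those over all probe sets were highest without pool pair 3. These fits have fewer arrays, and why the counts moved was not tested. After quantile normalization 8 members were higher and 19 lower, with 967 and 980 over all probe sets, and the cause was not tested. With no replicate block the counts were 5 higher and 26 lower, and 31 of the 35 calls remained. The methods' t-test on each probe set's own 3 pairs left 0 members and 0 probe sets past the Benjamini-Hochberg threshold in either direction, while 67 members had an unadjusted p below 0.05 in it, as the rule requires, and 52 in limma. Members with a mean intensity near or below the array medians have log2 differences that depend on the pseudocount, and detection calls were not analysed here.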
